A study of Mus musculus with 4 samples.

Results

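Testicular macrophage genes were examined in whole testes of control and Mps1sKO mice at postnatal day 10 (P10). The panel held 10 genes, chosen by symbol: *Adgre1*, *Csf1r*, *Cx3cr1*, *Mrc1*, *Cd163*, *Cd68*, *Aif1*, *C1qa*, *C1qb* and *C1qc*. All 10 were found among the 55820 loci of the count table, each as a single protein-coding gene. The study deleted *Mps1* (gene symbol *Ttk*), a kinase of the spindle assembly checkpoint, and the question put to these genes was whether the RNA of macrophages, which clear dying cells, differed between the genotypes after germ cell death. All mice were male C57BL/6J mice. In Mps1sKO mice, floxed *Mps1* alleles are deleted by *Stra8*-Cre, a recombinase transgene active in germ cells from early spermatogonia onwards, so that the deletion is not directed at macrophages or other somatic cells. The labels name the other group only as control and give neither its *Mps1* alleles nor whether it carried *Stra8*-Cre. Each genotype had 2 libraries, described as biological replicates, and whether each came from 1 mouse is not stated.

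Macrophages are the main resident immune cell of the testis. They lie in the interstitium beside Leydig cells and on the wall of the seminiferous tubules, outside the epithelium that holds the germ cells. Within the tubules, dying germ cells are taken up mainly by Sertoli cells, which carry their own receptors for apoptotic cells. Macrophages elsewhere recognise dying cells through receptors for phosphatidylserine and through bridging proteins, among them complement C1q, which they make themselves.

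The libraries held 23311689 to 28607746 counts, and mitochondrial genes took 2.52% to 3.14% of them. Values are given in CPM (counts relative to a fixed library total, scaled between libraries by TMM). A floor of 3 counts, the most that a count of 0 allows, was 0.105 to 0.129 CPM before the scaling by TMM and covers counting error only. Over loci of the whole table, replicates varied beyond counting noise (chi-square per degree of freedom 8.49 in control and 11.6 in Mps1sKO). Of the 10 macrophage genes, 0 had control libraries more than 2 counting errors apart, and 6 had Mps1sKO libraries that far apart. As the check of the genotype, *Ttk* had 750 and 940 counts in control against 302 and 326 in Mps1sKO, with a log2 fold change of −1.26 (SE 0.128, adjusted p = 0.0461 by the quasi-likelihood test of edgeR with Benjamini-Hochberg adjustment). Of 20561 loci tested, 6 were lower and 0 higher in Mps1sKO at an adjusted p below 0.05 (1105 lower and 807 higher at an unadjusted p below 0.05). DESeq2 called 34 loci.

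Transcripts of all 10 macrophage genes were present in every library, at 48 to 1186 counts, and all 10 passed the filter on low counts. None passed the test of control against Mps1sKO testes. Of these, 3 were higher and 7 lower, and the log2 fold changes ran from −0.18 for *Cd68* to 0.17 for *Cx3cr1*. The 10 genes together summed to 148.7 and 153.6 CPM in control against 155.6 and 142.0 CPM in Mps1sKO. The highest and the lowest of these sums both came from Mps1sKO testes, and the mean of the Mps1sKO sums was 98.4% of the control mean. Because these are whole testes, a change in the number of macrophages and a change in the RNA of each gene per macrophage cannot be told apart.

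By edgeR, 0 of 10 genes had an adjusted p below 0.05, beside 0.0292% of all loci tested, and 0 of 10 had an unadjusted p below 0.05, beside 9.3% of all loci (5.37% lower and 3.92% higher). The adjusted p-values lay between 0.730 and 0.994. DESeq2 (0.168% of its loci called) and limma-voom also called 0 of the 10, and in both 0 had an unadjusted p below 0.05. The 95% intervals of all 10 genes included no change. Their outermost bounds were a fold of 0.616 for *Aif1* on the lower side and 1.42 for *Cd163* on the upper side. The median log2 fold change of the panel was −0.076, beside 0.0003 over all loci tested and −0.0056 over the 7842 loci with levels in the range of the panel. The median size of the change, sign left aside, was 0.128 in the panel and 0.148 over all loci tested. Without Mps1sKO replicate 2 the panel median was 0.075, on the other side of 0.

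**Figure D1:**
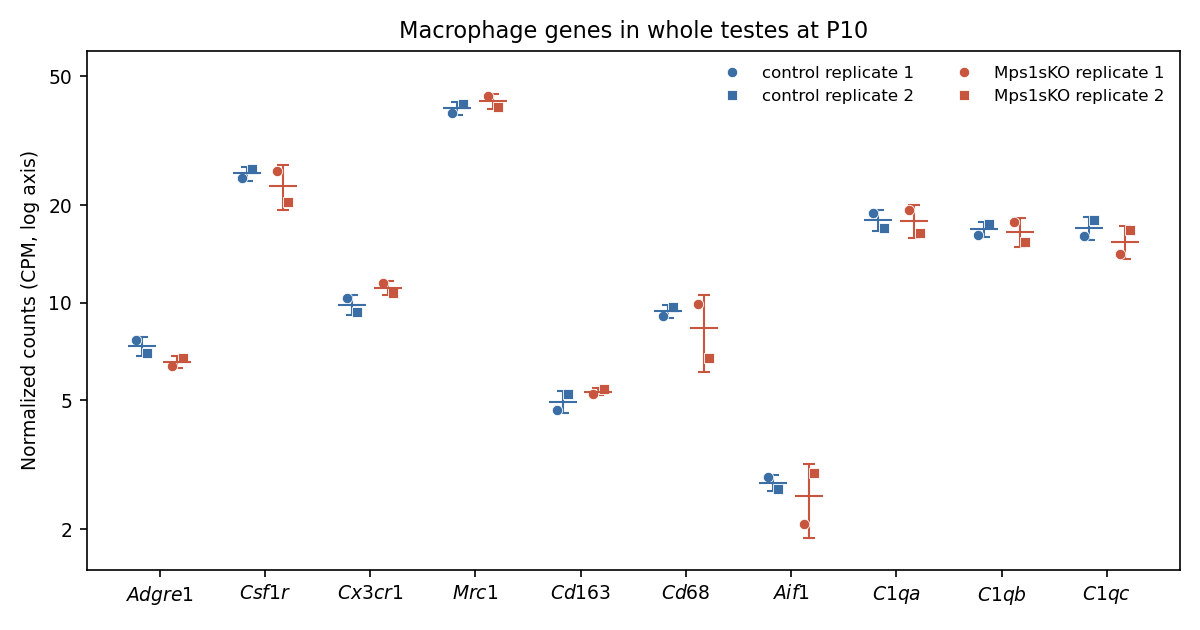
Normalized counts (CPM, log axis) of the 10 macrophage genes in each library; circles are replicate 1, squares replicate 2, and bars give the mean ± SD of the 2 libraries of a genotype. The genotypes overlap for 8 genes, with *Adgre1* (Mps1sKO lower) and *Cx3cr1* (Mps1sKO higher) apart, and the widest Mps1sKO bars in relation to the mean are those of *Cd68* and *Aif1*.

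Both Mps1sKO libraries lay beyond both control libraries for 2 of the 10 genes, 1 below and 1 above, whereas 41.4% of all loci tested had groups that did not overlap (21.1% below and 20.3% above). Mps1sKO replicate 1 held the highest value of 5 genes and the lowest of 3, and Mps1sKO replicate 2 held the highest of 2 and the lowest of 4.

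Sequence just upstream of the transcription start was available for 7 of the 10 genes in the RefSeq promoter windows (GRCm38.p6, 250 bases before to 50 after the start). PU.1, the factor encoded by *Spi1*, drives much of the macrophage programme and binds purine-rich letters around a GGAA core, and the letters GAGGAA were therefore searched on both strands (TTCCTC on the other). They were found in 5 of the 7 windows, 3 times in *Mrc1*, 2 times in *Cd68* and once each in *C1qb*, *C1qc* and *Aif1*, and not in *Cd163* or *Cx3cr1*. Of all 32851 RefSeq windows of this length, 28.3% held them. The match is of letters only and does not show binding. The stretches below are the gene's own strand, 5′ to 3′, from upstream of every annotated start, with the matches in capitals. They were chosen as those of the panel gene with the most counts and of a pair of neighbouring C1q genes described below. They lie at chr2:14229164-14229391 on the plus strand for *Mrc1*, at chr4:136886201-136886450 on the minus strand for *C1qb* and at chr4:136893066-136893164 on the minus strand for *C1qc*.
Mrc1: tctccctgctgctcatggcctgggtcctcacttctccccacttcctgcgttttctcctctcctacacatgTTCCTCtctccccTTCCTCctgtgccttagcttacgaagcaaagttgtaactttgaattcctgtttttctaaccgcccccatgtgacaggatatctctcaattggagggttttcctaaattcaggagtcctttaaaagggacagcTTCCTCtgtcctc
C1qb: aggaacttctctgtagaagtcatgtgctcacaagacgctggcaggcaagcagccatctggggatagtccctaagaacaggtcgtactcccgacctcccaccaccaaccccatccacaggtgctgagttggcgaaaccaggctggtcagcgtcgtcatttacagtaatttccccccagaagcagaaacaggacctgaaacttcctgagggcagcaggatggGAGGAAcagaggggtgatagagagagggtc
C1qc: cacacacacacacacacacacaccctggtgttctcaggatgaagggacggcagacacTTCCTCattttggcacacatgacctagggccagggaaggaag

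Of the receptors that mark the cells, *Adgre1* encodes the adhesion receptor recognised by the classical mouse macrophage antibody F4/80. The gene (ENSMUSG00000004730) lies at chr17:57358691-57483527 on GRCm38, plus strand. Its counts were 207 and 202 in control and 148 and 181 in Mps1sKO, or 7.35 ± 0.483 and 6.57 ± 0.260 CPM (mean ± SD, n = 2). Both Mps1sKO libraries were below both controls. The log2 fold change was −0.16 (SE 0.159, 95% interval −0.53 to 0.21), and the adjusted p was 0.776 from edgeR.

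*Csf1r* encodes the receptor for CSF1 and IL-34, on which most tissue macrophages depend for survival. The gene (ENSMUSG00000024621) lies at chr18:61100598-61132149, plus strand, and 873 of its exonic bases (15.1%) are also exon of *Hmgxb3* on the opposite strand. Whether the counting used strand is not given in the sources used here, so reads from those bases may belong to either gene. It had 652 and 748 counts in control against 593 and 547 in Mps1sKO, or 25.1 ± 1.22 and 23.002 ± 3.66 CPM. Mps1sKO replicate 1, at 25.6 CPM, lay between the controls, and replicate 2, at 20.4 CPM, below them. The log2 fold change was −0.13 (SE 0.136, 95% interval −0.44 to 0.19, adjusted p = 0.794 from edgeR).

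*Cx3cr1* encodes the receptor for fractalkine, a chemokine held on the surface of the cells that make it. The gene (ENSMUSG00000052336) lies at chr9:119901616-120069879, minus strand. Its span overlaps 9 other annotated genes, and 78 of its exonic bases (1.73%) are also exon of another gene. It had 279 and 270 counts in control against 266 and 287 in Mps1sKO, or 9.86 ± 0.706 and 11.1 ± 0.544 CPM. Here both Mps1sKO libraries were above both controls, the opposite order to *Adgre1*. The log2 fold change of 0.17 (SE 0.143, 95% interval −0.16 to 0.50) did not pass the test (adjusted p = 0.730 from edgeR), although it had the smallest p of the 10 genes, an unadjusted 0.270. A list of ligand genes was set beside the panel, and none of those tested passed the test either. The list is not limited to ligands of the receptors above, since *Csf2* and *Hp* encode ligands of none of them. *Cx3cl1*, which encodes fractalkine, was at 29.4 ± 6.17 CPM in control and 32.3 ± 4.10 CPM in Mps1sKO, and *Csf1* was at 24.9 ± 1.33 and 27.6 ± 2.35 CPM, with log2 fold changes of 0.14 and 0.15. Of the 5 ligand genes listed (*Csf1*, *Il34*, *Cx3cl1*, *Csf2* and *Hp*), 4 could be tested, 3 were higher and 1 lower, 0 had an adjusted or unadjusted p below 0.05, and their median was 0.086. *Csf2* had 0 counts in every library.

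Of the endocytic receptors, *Mrc1* encodes the mannose receptor CD206, a marker of resident macrophages that takes up glycoproteins. The gene (ENSMUSG00000026712) lies at chr2:14229392-14332057, plus strand, and was the most highly counted of the panel. It had 1038 and 1186 counts in control against 1010 and 1081 in Mps1sKO, or 39.8 ± 1.82 and 42.0 ± 2.30 CPM. The genotypes overlapped, since Mps1sKO replicate 2 at 40.3 CPM fell between the controls at 38.5 and 41.1 CPM. With the smallest error of the 10, the log2 fold change was 0.075 (SE 0.0987, 95% interval −0.15 to 0.30, adjusted p = 0.835 from edgeR).

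*Cd163* encodes the scavenger receptor for haemoglobin bound to haptoglobin. The gene (ENSMUSG00000008845) lies at chr6:124304656-124330527, plus strand. It had 126 and 151 counts in control against 121 and 145 in Mps1sKO, or 4.96 ± 0.394 and 5.32 ± 0.134 CPM. The lowest library was a control, and the others lay within 5.22 to 5.41 CPM. The log2 fold change was 0.10 (SE 0.173, 95% interval −0.30 to 0.50, adjusted p = 0.881 from edgeR).

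*Cd68* encodes a heavily glycosylated protein of the lysosome membrane, abundant in phagocytes. The gene (ENSMUSG00000018774) lies at chr11:69664213-69666153, minus strand. Its counts were 245 and 280 in control and 230 and 181 in Mps1sKO, or 9.40 ± 0.432 and 8.34 ± 2.24 CPM. The Mps1sKO libraries lay on either side of the controls, at 9.93 CPM in replicate 1 and 6.75 CPM in replicate 2. The log2 fold change of −0.18 (SE 0.202, 95% interval −0.65 to 0.29, adjusted p = 0.807 from edgeR) was 0.078 without Mps1sKO replicate 2. It was −0.48 without Mps1sKO replicate 1 (unadjusted p = 0.0311, adjusted p = 0.345 from edgeR).

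*Aif1* encodes IBA1, a calcium-binding protein of the actin cytoskeleton. The gene (ENSMUSG00000024397) lies at chr17:35170991-35176068, minus strand, and had the fewest counts of the panel, 78 and 77 in control and 48 and 80 in Mps1sKO. These are 2.78 ± 0.160 and 2.53 ± 0.646 CPM. The lowest and the highest library were both Mps1sKO, at 2.07 and 2.99 CPM. The log2 fold change was −0.13 (SE 0.245, adjusted p = 0.893 from edgeR) with the widest interval, −0.70 to 0.44, and it was 0.10 without Mps1sKO replicate 1.

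**Figure D2:**
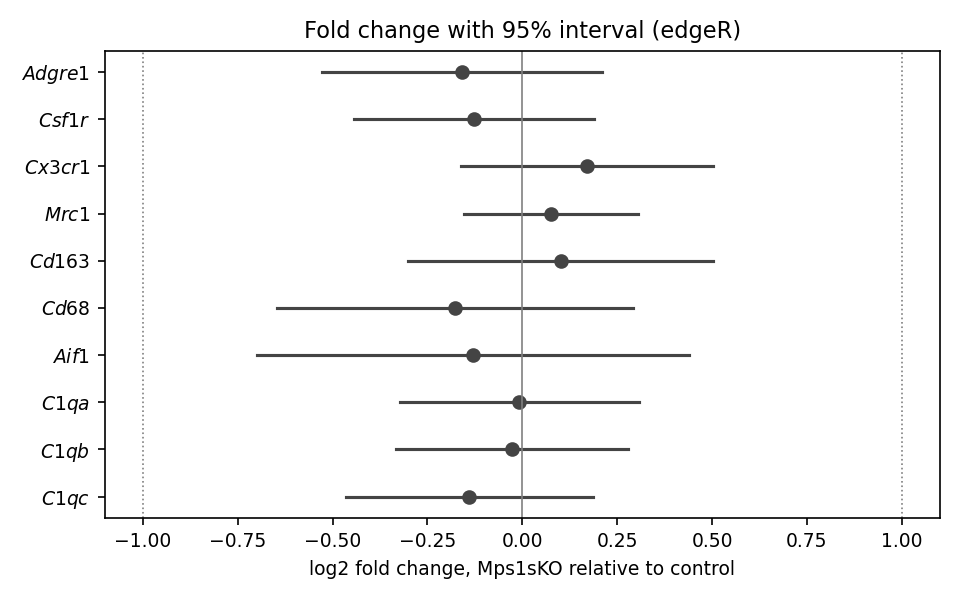
Log2 fold change of Mps1sKO relative to control for each macrophage gene (points) with its 95% interval from edgeR (lines); the solid vertical line marks no change and the dotted lines 1 log2 unit either way. All 10 intervals cross the solid line and none reaches a dotted line, the widest being that of *Aif1*, from −0.70 to 0.44.

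*C1qa*, *C1qb* and *C1qc* encode the A, B and C chains of C1q, which assemble into the molecule that starts the classical complement pathway and also binds dying cells. They are neighbours on chromosome 4, all on the minus strand, and span 18675 bases with no other annotated gene between them. *C1qb* (ENSMUSG00000036905) lies at chr4:136880129-136886187, *C1qc* (ENSMUSG00000036896) at chr4:136889804-136893065 and *C1qa* (ENSMUSG00000036887) at chr4:136895917-136898803. No exonic base of the 3 genes is shared with another gene.

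*C1qa* had 510 and 491 counts in control against 449 and 440 in Mps1sKO, or 17.98 ± 1.35 and 17.9 ± 2.09 CPM. *C1qb* had 437 and 506 counts in control against 412 and 413 in Mps1sKO, or 16.9 ± 0.931 and 16.6 ± 1.68 CPM. For both genes the lowest and the highest library were Mps1sKO. *C1qc* had 433 and 519 counts in control against 328 and 449 in Mps1sKO, or 17.04 ± 1.35 and 15.5 ± 1.84 CPM. Here the lowest library was Mps1sKO replicate 1 and the highest control replicate 2, and the groups overlapped. The log2 fold changes were −0.0076 (SE 0.136, 95% interval −0.32 to 0.31, adjusted p = 0.994 from edgeR) for *C1qa* and −0.026 (SE 0.132, 95% interval −0.33 to 0.28, adjusted p = 0.969 from edgeR) for *C1qb*. That of *C1qc* was −0.14 (SE 0.140, 95% interval −0.46 to 0.19, adjusted p = 0.779 from edgeR). Summed over the chains, C1q gave 51.2 and 52.6 CPM in control and 51.3 and 48.6 CPM in Mps1sKO, and the Mps1sKO mean was 96.2% of the control mean.

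Levels of different genes were compared per length, on the deposited FPKM values. *C1qa* was highest at 17.2 ± 1.35 FPKM (mean ± SD, n = 4 libraries), followed by *C1qb* at 15.3 ± 1.01 FPKM, and their ranges overlapped. *C1qc* followed at 8.37 ± 0.825, *Cd68* at 7.02 ± 1.14 and *Mrc1* at 6.38 ± 0.334 FPKM, and neighbours in this order overlapped as well. *Mrc1*, first by counts, thus stood behind all 3 C1q genes and *Cd68* by FPKM. *Csf1r* stood apart at 4.14 ± 0.429 FPKM, *Cx3cr1* and *Adgre1* overlapped at 2.31 ± 0.197 and 2.14 ± 0.164 FPKM, and *Aif1* at 1.72 ± 0.267 and *Cd163* at 0.936 ± 0.0600 FPKM came last.

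Of the summed C1q FPKM, *C1qa* made 43.9% and 39.1% in control against 44.0% and 40.9% in Mps1sKO. *C1qb* made 36.0% and 38.6% in control and 38.6% and 36.7% in Mps1sKO. *C1qc* made 20.1% and 22.3% in control and 17.3% and 22.5% in Mps1sKO. In each genotype replicate 1 had more *C1qa* and less *C1qc* than replicate 2, and the ranges of the genotypes overlapped for all 3 chains.

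**Figure D3:**
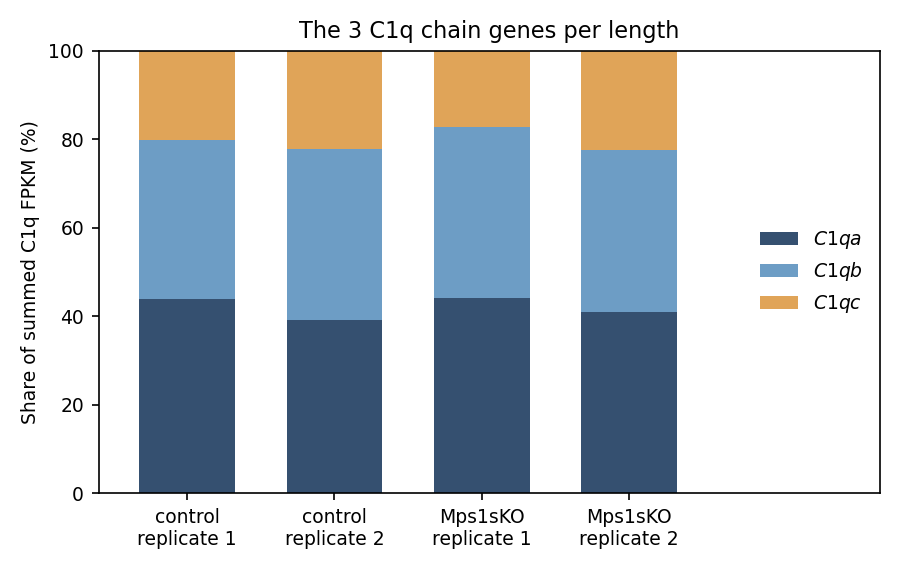
Share (%) of *C1qa*, *C1qb* and *C1qc* in the summed C1q FPKM of each library, as stacked bars that add to the whole. *C1qc* makes the smallest share in all 4 libraries, from 17.3% in Mps1sKO replicate 1 to 22.5% in Mps1sKO replicate 2.

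Other genes of macrophages gave values on both sides of no change. Of 20 further pan-macrophage genes (such as *Ptprc*, *Itgam*, *Tyrobp* and *Spi1*), 19 were tested, 9 were higher and 10 lower, 0 had an adjusted p below 0.05, and the median was −0.0093. *Mpeg1*, which encodes a pore-forming protein of phagocytes, was at 40.0 ± 2.22 CPM in control and 45.3 ± 1.20 CPM in Mps1sKO (log2 fold change 0.18, adjusted p = 0.595 from edgeR), and *Lyz2*, the macrophage lysozyme, was at 27.3 ± 1.39 and 30.3 ± 0.0563 CPM (0.15, adjusted p = 0.667). *Fcgr3*, an activating receptor for antibody, was the single gene of the list with an unadjusted p below 0.05. It had 82 and 70 counts in control against 90 and 118 in Mps1sKO (log2 fold change 0.60, SE 0.212, adjusted p = 0.505 from edgeR).

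The 7 genes of long-lived resident macrophages (*Folr2*, *Lyve1*, *Timd4*, *Pf4*, *Stab1*, *Cbr2* and *F13a1*) were all tested, with 3 higher, 4 lower, 0 at an adjusted or unadjusted p below 0.05 and a median of −0.022. *Pf4*, a chemokine gene, was at 10.9 ± 1.26 CPM in control and 11.5 ± 0.783 in Mps1sKO, and *Cbr2*, a carbonyl reductase gene, at 12.5 ± 2.57 and 11.8 ± 0.562 CPM. The summed CPM of this list in Mps1sKO was 100.4% of the control sum. The 6 genes of MHC class II presentation and *Itgax* gave 2 higher and 4 lower with a median of −0.068, and 0 had an adjusted p below 0.05. *Cd74*, the invariant chain, was at 3.63 ± 1.01 and 3.01 ± 0.597 CPM, and *H2-Eb1*, a class II beta chain, at 2.85 ± 0.645 and 2.65 ± 0.634 CPM. *Itgax*, which encodes the integrin CD11c, had 21 and 37 counts in control against 41 and 64 in Mps1sKO (log2 fold change 1.01, SE 0.327, unadjusted p = 0.0154, adjusted p = 0.497 from edgeR).

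Around C1q in the complement system, 18 of 19 listed genes were tested, 11 were higher and 7 lower, 0 had an adjusted p below 0.05, and the median was 0.082. By FPKM, the most highly expressed were *Calr* and *Serping1*. *Calr*, which encodes calreticulin, a chaperone that also binds C1q, was at 536 ± 51.0 CPM in control and 596 ± 74.6 in Mps1sKO (log2 fold change 0.15, adjusted p = 0.696 from edgeR). *Serping1*, the C1 inhibitor, was at 99.1 ± 4.93 and 92.8 ± 5.0 CPM (−0.094, adjusted p = 0.774 from edgeR). *C5ar1*, the receptor for C5a, had 21 and 36 counts in control against 14 and 11 in Mps1sKO (−1.01, SE 0.420, unadjusted p = 0.0409, adjusted p = 0.527 from edgeR), and no other gene of the list had an unadjusted p below 0.05.

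Of 23 genes of apoptotic cell recognition and uptake, all were tested, 20 were higher and 3 lower, and the median was 0.13. None had an adjusted p below 0.05 by edgeR, and 4 had an unadjusted p below 0.05, beside 9.3% of all loci tested. Of the 4, 3 were higher and 1 lower. Those 3 encode the receptor tyrosine kinases that bind dying cells through bridging proteins. *Tyro3* was at 486 ± 70.1 CPM in control and 639 ± 27.8 CPM in Mps1sKO (log2 fold change 0.39, SE 0.114, adjusted p = 0.494 from edgeR). *Axl* was at 451 ± 17.3 and 541 ± 22.3 CPM (0.26, SE 0.0873, adjusted p = 0.497), and *Mertk* at 45.3 ± 1.56 and 52.9 ± 0.00743 CPM (0.22, SE 0.0911, adjusted p = 0.528). Their ligand gene *Gas6* was at 290 ± 34.8 and 344 ± 51.7 CPM (0.25, adjusted p = 0.594). The lower one, *Adgrb1*, a phosphatidylserine receptor gene, was at 7.80 ± 0.890 and 4.83 ± 0.665 CPM (−0.69, SE 0.184, adjusted p = 0.494). Genes of Sertoli cells, which also express the 3 kinase genes, are given here as well. All 8 Sertoli cell genes were higher in Mps1sKO, with a median of 0.26, and 0 had an adjusted p below 0.05. *Gata4* (0.38) and *Dhh* (0.42) had an unadjusted p below 0.05 by edgeR, beside 3.92% of all loci tested that were higher at this threshold. The most highly expressed, *Clu* and *Cldn11*, were at 0.25 and 0.080. The genotypes overlapped for 5 of the 8 genes. For the other 3 both Mps1sKO libraries were above both controls, as were 20.3% of all loci tested. The summed CPM of the 8 genes ranged from 4376 to 4876 in control and from 5106 to 5964 in Mps1sKO. The part of Sertoli cell RNA in the values of the uptake genes was not tested.

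Genes tied to inflammation, with *Arg1*, *Il10* and *Tgfb1* among them, were mostly low. The list is thus not one of inflammatory macrophages only. Of 16, only 6 had enough counts to be tested, 4 were higher and 2 lower, 0 had an adjusted p below 0.05, and the median was 0.11. *Tgfb1* was at 17.3 ± 1.32 CPM in control and 21.2 ± 3.20 in Mps1sKO (log2 fold change 0.29, adjusted p = 0.576 from edgeR), and *Arg1* at 0.912 ± 0.0826 and 1.02 ± 0.0200 CPM. *Ptgs2*, the inducible cyclooxygenase gene, had 10 and 18 counts in control against 5 and 2 in Mps1sKO (unadjusted p = 0.0255, adjusted p = 0.507 from edgeR). The other 10 genes were too low to be tested and are all given here, outside the rule for named genes. *Tnf* had 1 and 2 counts in control against 13 and 9 in Mps1sKO, *Ccl2* had 1 and 3 against 7 and 8, and *Nos2* had 1 and 7 against 15 and 8. *Il1b* had 10 and 8 against 8 and 6, *Ccl5* had 6 and 6 against 4 and 6, and *Ccl4* had 3 and 0 against 3 and 1. *Il6* had 2 counts in 1 control library and 0 elsewhere, *Ccl3* had 1 count in 1 Mps1sKO library and 0 elsewhere, and *Il10* and *Cxcl2* had 0 in every library. The genotypes overlapped or were both at 0 for 7 of the 10. For *Tnf*, *Ccl2* and *Nos2* both Mps1sKO libraries were above both control libraries. Of the loci tested, 20.3% had this order, but these 3 genes were too low to be among them. That share is therefore not one for genes at such counts. The paper lists *Tnf* among the genes it checked by qPCR and reports changes that matched its sequencing.

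**Figure D4:**
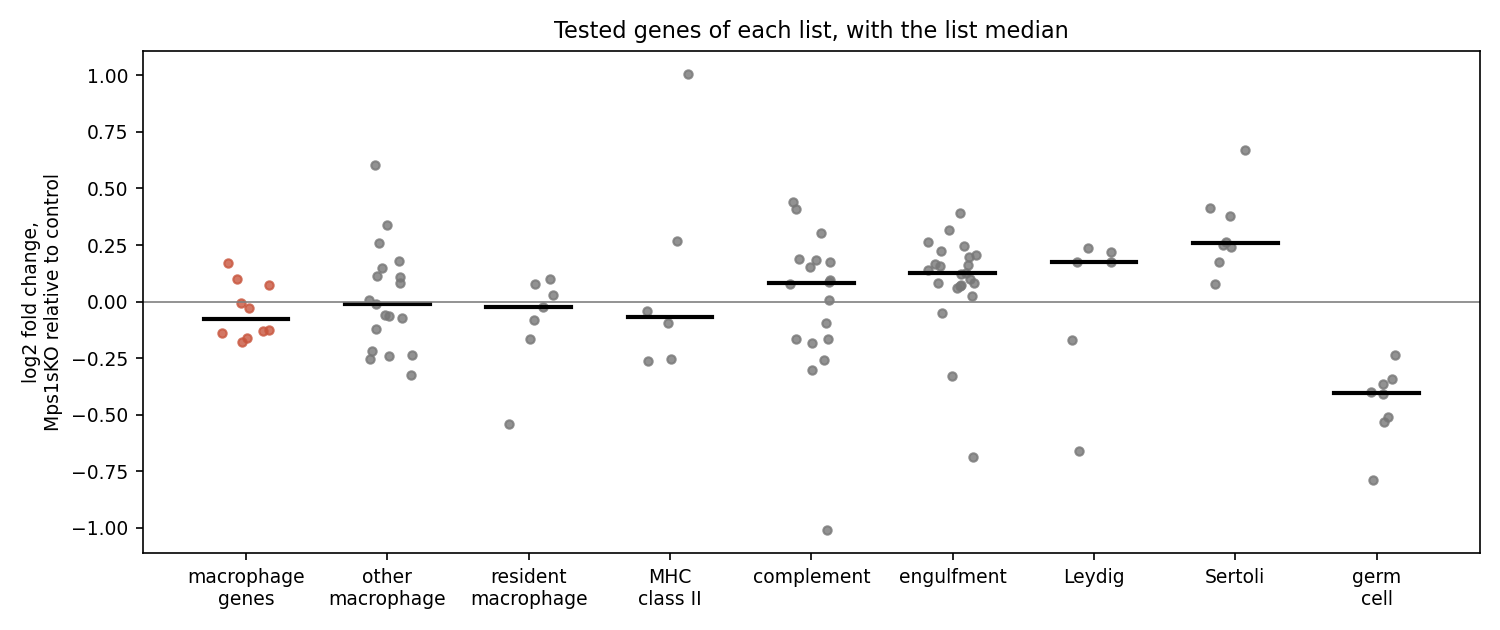
Log2 fold change of Mps1sKO relative to control for each tested gene (points, spread sideways only to separate them) of the 10 macrophage genes and 8 further lists, with each list's median as a bar. The macrophage lists lie around no change with medians between −0.076 and −0.0093, the germ cell genes all lie below it with a median of −0.40, and the Sertoli cell genes all lie above it with a median of 0.26.

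Genes of other leukocytes were low. *Plac8* and *Ccr2*, the monocyte genes with enough counts, were at 4.63 ± 0.174 and 1.18 ± 0.0574 CPM in control and at 4.63 ± 0.318 and 1.60 ± 0.730 CPM in Mps1sKO, and 2 of 4 monocyte genes were tested with a median of 0.21. Of 9 neutrophil genes, 5 were tested and all 5 were lower. An unadjusted p below 0.05 by edgeR was reached by 3 of them, beside 5.37% of all loci tested that were lower at this threshold. These were *S100a8* with 29 and 28 counts in control against 4 and 6 in Mps1sKO (adjusted p = 0.494 from edgeR), *S100a9* with 14 and 18 against 4 and 2, and *Ngp* with 15 and 15 against 3 and 4. The summed neutrophil level was 3.29 to 3.60 CPM in control and 1.12 to 1.77 CPM in Mps1sKO. The medians were −0.011 over 5 tested T and NK cell genes (of 8), 0.098 over 3 B cell genes (of 4), 0.41 over 4 mast cell genes (of 5) and 0.14 over 2 dendritic cell genes (of 4). None of these genes had an adjusted p below 0.05 by edgeR. The B cell gene *Cd79b* was the only one of these 4 lists with an unadjusted p below 0.05, on 4 and 8 counts in control against 14 and 13 in Mps1sKO. The most highly expressed genes of these lists were *Lck* and *Nkg7* (log2 fold changes −0.0041 and 0.44), *Cd79a* (−0.51) beside *Cd79b*, *Mcpt4* and *Cma1* (0.37 and 0.44), and *Flt3* and *Xcr1* (0.039 and 0.24).

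Of the genes of germ cells, in which *Mps1* is deleted, all 8 were lower in Mps1sKO, with a median of −0.40. An unadjusted p below 0.05 by edgeR was reached by 7 of the 8, beside 5.37% of all loci tested that were lower at this threshold. None had an adjusted p below 0.05 by edgeR, while DESeq2 called *Stra8* (adjusted p = 0.00448) and *Mael* (adjusted p = 0.0334), needed for meiotic entry and for transposon silencing. The log2 fold changes were −0.79 for *Stra8*, −0.51 for *Mael*, −0.53 for *Sycp3*, a gene of the synaptonemal complex, and −0.36 for *Zbtb16*, a gene of undifferentiated spermatogonia. The most highly expressed, *Dazl* and *Uchl1*, were at −0.40 and −0.34. Summed germ cell CPM was 1485 and 1711 in control and 1288 and 1111 in Mps1sKO, 75.1% of control by the means, beside the 98.4% of the macrophage panel. Leydig cell genes had a median of 0.18 (6 genes), peritubular myoid genes −0.10 (6), endothelial genes 0.066 (7), lymphatic endothelial genes −0.11 (2) and red blood cell genes −0.014 (4), and 0 of these had an adjusted or unadjusted p below 0.05 by edgeR. Their most highly expressed genes were at log2 fold changes of 0.18 (*Hsd3b1*) and −0.17 (*Cyp17a1*) for Leydig cells and −0.12 (*Acta2*) and −0.053 (*Myh11*) for myoid cells. The same values were 0.16 (*Cdh5*) and −0.066 (*Egfl7*) for endothelium, −0.205 (*Flt4*) and −0.018 (*Prox1*) for lymphatic endothelium, and 0.077 (*Hba-a1*) and 0.31 (*Hbb-bs*) for red blood cells, whose globin genes have near-identical copies that can split reads. In a library of fixed depth, a lower share of RNA from one cell type goes with higher shares from the others. The part of the lower germ cell share in the values of the macrophage genes was not tested.

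Across the 4 libraries, the 10 macrophage genes had mean log2 CPM, each gene centred on its own mean, of 0.015 and 0.032 in control and 0.0085 and −0.056 in Mps1sKO. Among the loci outside the lists nearest to this mean profile were *Hjurp* and *Dhx30*, at root mean square differences of 0.0053 and 0.0073 log2 units over 4 libraries. A total of 1492 loci lay within 0.05 log2 units of it. Single genes of the panel spanned 0.18 (*Mrc1*) to 0.55 (*Cd68*) log2 units between their lowest and highest library.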

How the data were processed

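RNA was measured in 4 libraries of whole testes, with the genotype in the labels as the group. Per the labels and the methods, NEBNext Ultra libraries were sequenced as 150 bp paired-end reads on an Illumina NovaSeq platform, and the submitters' processing notes name HISAT2 2.0.5, featureCounts, DESeq2 1.16.1 and mm10. The parameters and the strand setting of the counting are not given in the sources used here. The authors deposited raw counts per gene without normalization, together with FPKM values that they computed per gene length and library size. Coordinates are those of GENCODE M21 on GRCm38, identical for all 55536 annotated IDs in the table.

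For the counts, edgeR 4.0.16 was run in R 4.3.3 (filterByExpr, TMM, quasi-likelihood test, two-sided), with Benjamini-Hochberg adjustment over 20561 loci. The common biological coefficient of variation was 0.106. The p-values weigh the genotype difference only against the spread between these libraries, estimated for each locus with help from the other loci. FPKM served only to compare genes by level. The procedure was tested on simulated data. The macrophage genes, the other lists and the alternatives were chosen with earlier results of these data known. All 10 genes are described in full, and *Ttk* checks the genotype. From every other list, the text names up to 4 genes with the smallest unadjusted p below 0.05. It also names the 2 most highly expressed by FPKM. Of the 3 loci outside the lists nearest to the mean profile of the panel, 1 is not reported here. The alternatives were DESeq2 1.42.0, limma-voom 3.58.1, other size factors, other filters, a replicate block and each library left out.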

Additional observations from a re-analysis of the deposited data

How the results depend on the processing

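None of the 10 macrophage genes had an adjusted p below 0.05 under any of the alternatives. Under those that kept all 4 libraries, all 80 log2 fold changes kept their direction, within −0.21 to 0.18, and the smallest adjusted p was 0.539. With 1 library left out, where the lone library is assumed to vary like the other genotype, 7 of 40 changed direction: *C1qa* to 0.069 without control replicate 1 and 0.11 without Mps1sKO replicate 2, *C1qb* to 0.030 without control replicate 2 and 0.075 without Mps1sKO replicate 2, *Aif1* to 0.10 without Mps1sKO replicate 1, and *Cd68* to 0.078 and *Csf1r* to 0.030 without Mps1sKO replicate 2. The lowest values of these genes were −0.13 for *C1qa* and *C1qb*, −0.48 for *Cd68* and −0.30 for *Csf1r* without Mps1sKO replicate 1, and −0.42 for *Aif1* without Mps1sKO replicate 2. The panel median then ran from −0.078 to 0.075, the upper end without Mps1sKO replicate 2. For scale, the mean log2 CPM of the 10 genes had an SD of 0.033 between libraries of a genotype. The number of loci of the whole table with an adjusted p below 0.05 depended on the method: 6 lower and 0 higher as reported, 27 and 7 with DESeq2, 3 and 0 with limma-voom, 251 and 139 with no filter on low counts, 3 and 0 with at least 10 counts in every library, and 11 to 126 lower and 6 to 73 higher with 1 library left out (126 and 73 without control replicate 1). The cause was not tested. Whether the replicate numbers pair the libraries is not stated. Libraries of the same number deviated with a correlation of −0.19 over 20561 loci, a value that cannot show whether they shared a litter or a day. With the replicate block 2 loci were lower and 0 higher. With the numbers crossed, an alternative added after seeing the data, 304 were lower and 246 higher. *Aif1*, at 48 to 80 counts, had the widest interval, 1.14 log2 units.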
